A study of Mus musculus with 36 samples.

Results

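The comparison described here is that of BD10-2 with vehicle in theta-burst-stimulated hippocampal slices of wild-type mice. Its members are the samples labelled wild-type and stimulated, with libraries that carried the same mouse and stimulation labels added together. This rule gave 7 of the 32 samples in the series, from 8 of its 36 libraries. There were 3 mice given BD10-2 and 4 given vehicle.

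The study compared wild-type C57BL/6 mice and T41B mice, an amyloid model with a human APP transgene, under BD10-2 or vehicle. Transcripts of slices that had been stimulated or sham-treated were measured by RNA sequencing. The wild-type BD10-2 stimulated group held slices of Mouse1565 and Mouse1571 (batch I) and of Mouse1586 (batch B, 2 libraries). The wild-type vehicle stimulated group held slices of Mouse1509 and Mouse1513 (batch E), Mouse1522 (batch A) and Mouse1524 (batch C). The wild-type sham slices used beside them came from Mouse1565, Mouse1571 and Mouse1590 (batch D) under BD10-2, and from the same 4 mice under vehicle. All these mice were gavaged for 3 months, from 13 to 16 months of age, and none carried the transgene. Stimulation was applied 3 times to a slice of the right hippocampus, each time in 10 bursts 200 ms apart, a burst being 4 stimuli given at 100 Hz, and sham slices were handled for as long without it. Each slice was 1 piece of tissue from 1 mouse, frozen at once after the procedure. The labels give batch letters without saying what step a batch shares. Every batch held 1 treatment, so BD10-2 and batch cannot be told apart. A p-value measures only the spread between slices, which was pooled over all 8 groups of the series, T41B included.

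BD10-2 is described by the study as a partial agonist of TrkB and TrkC. These are the receptors through which brain-derived neurotrophic factor and neurotrophin-3 signal to the MAP kinase, PI3 kinase and phospholipase C pathways, and in the hippocampus TrkB signalling is known for its part in long-term potentiation. The choroid plexus is a secretory epithelium inside the ventricles that lies against the hippocampus. It makes cerebrospinal fluid and transthyretin, and strips of it can stay attached to a slice. Brain cells make their own cholesterol, through a chain of enzymes that runs from acetyl-CoA over mevalonate and squalene and is switched on together by the SREBP transcription factors.

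The 7 samples held between 16039499 and 34362352 counts (median 21523095), of which 2.91% to 4.88% fell on mitochondrial genes. The 10 most abundant genes took 15.1% to 19.3%, and the highest share and the fewest detected genes (23759) belonged to Mouse1524 of the vehicle group. Markers of dentate gyrus, CA1 and CA3 cells were present in every slice: Prox1, a granule cell transcription factor, stood at 102 to 186 CPM (counts scaled to a common library size), and Wfs1, a CA1 marker, at 61.8 to 144 CPM. In bulk tissue, fewer cells of a type and less RNA per cell cannot be told apart.

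No gene of 19478 tested differed between BD10-2 and vehicle at an edgeR adjusted p under 0.05 (0% of the genes tested). At an unadjusted p under 0.05 there were 1093 genes, 524 higher with BD10-2 (2.69% of genes tested) and 569 lower (2.92%). DESeq2 gave 1109 genes at an unadjusted p under 0.05 and called 25 at an adjusted p under 0.05, of which 24 were lower with BD10-2. Of those 25 calls, 11 were on the choroid plexus list and 22 were genes whose 2 batch E slices both lay above the other 5 samples. That pattern was found in 5.92% of all genes tested. It places 2 vehicle slices above every BD10-2 slice, so calls lower with BD10-2 favour it by construction, and the share is no test. Among the 3 other DESeq2 calls, Rnu3a (ENSMUSG00000065870) was lower and Tnfrsf25 was higher. Rnu3a is a small nucleolar RNA with a near-identical copy of the same symbol, so its counts are uncertain. With 1 vehicle mouse left out, edgeR called 21 genes without Mouse1522 and 26 without Mouse1524, all lower. Of these, 20 and 26 had the batch E pattern, in fits where batch E made up most of the vehicle mice left. Leaving out 1 BD10-2 mouse moved the number at an unadjusted p to 453 (Mouse1565), 699 (Mouse1571) or 1848 (Mouse1586). The median log2 fold change over all genes tested was -0.01.

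Choroid plexus transcripts had the lowest median of the 27 gene lists, and the difference was carried by the stimulated slices of Mouse1509 and Mouse1513. All 24 listed choroid plexus genes were tested, all 24 had lower estimates with BD10-2, and the median log2 fold change was -3.18. Of them, 23 were lower at an unadjusted p under 0.05, against 2.92% of all genes, and none was called by edgeR. The list and batch E were singled out with these values known, so this count describes that choice and tests nothing. With only the 2 groups in the fit, 16 of the 24 passed the filter on low counts. Of those, 14 were lower at an unadjusted p, and the median was -2.42. The groups were separate for 2 of the 24, Slc4a5 and Cldn2, beside 3.31% of all genes in this direction. The vehicle slices outside batch E resembled those given BD10-2. Kcnj13 and Wfdc2 had no count in any BD10-2 slice. Set against a floor of 3 counts per library, they were at least 22.3-fold and at least 4.14-fold lower, and with both genes at that bound the median of the list was -3.06.

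Ttr (ENSMUSG00000061808) encodes transthyretin, the carrier of thyroid hormone and retinol that is the most abundant choroid plexus transcript. It stood at 1072 and 878 CPM in the stimulated slices of Mouse1509 and Mouse1513. The other vehicle slices held 0.13 CPM (Mouse1522) and 0 CPM (Mouse1524), and the BD10-2 slices 0.0811, 0.372 and 0.0295 CPM. Batch E thus stood apart from all 5 other slices, while the remaining vehicle slices overlapped the BD10-2 range. The fitted log2 fold change was -11.89 (SE 3.08, adjusted p = 0.322 by edgeR; DESeq2 adjusted p = 0.00142).

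The sham slices of the same mice did not share this. Sham Ttr was 0.178 CPM in Mouse1509 and 0.865 CPM in Mouse1513, and the BD10-2 sham slices reached 1.19 CPM at most. The summed level of the 24 genes was 2113 and 1739 CPM in the batch E stimulated slices, 204 and 236 CPM in those of Mouse1522 and Mouse1524, 180 to 269 CPM in the BD10-2 slices and 149 to 195 CPM in the 7 sham slices. Over the whole series Ttr passed 10 CPM in 6 of 32 samples, all of them from vehicle-treated mice, 2 of them the batch E slices described here.

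Enzymes, channels and transporters of the epithelium followed Ttr. Enpp2, the lysophosphatidic acid-producing enzyme autotaxin, which oligodendrocytes also make, measured 146, 236 and 191 CPM with BD10-2 against 721 and 600 CPM in batch E and 170 and 214 CPM in the other vehicle slices. Kl, which encodes the anti-ageing hormone and co-receptor klotho, measured 19, 17.1 and 17.7 CPM with BD10-2 against 79.1, 63.2, 19.7 and 12.9 CPM with vehicle. For both genes only the batch E slices left the common range. Clic6, an intracellular chloride channel, ran from 0.148 to 0.372 CPM with BD10-2 and was 27.5, 21.6, 0.259 and 0.0615 CPM with vehicle. F5, coagulation factor V, Tmem72, Prlr, the prolactin receptor, and Mfrp were likewise highest in the 2 batch E slices, with log2 fold changes of -5.15, -2.94, -2.42 and -2.41.

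**Figure D1:**
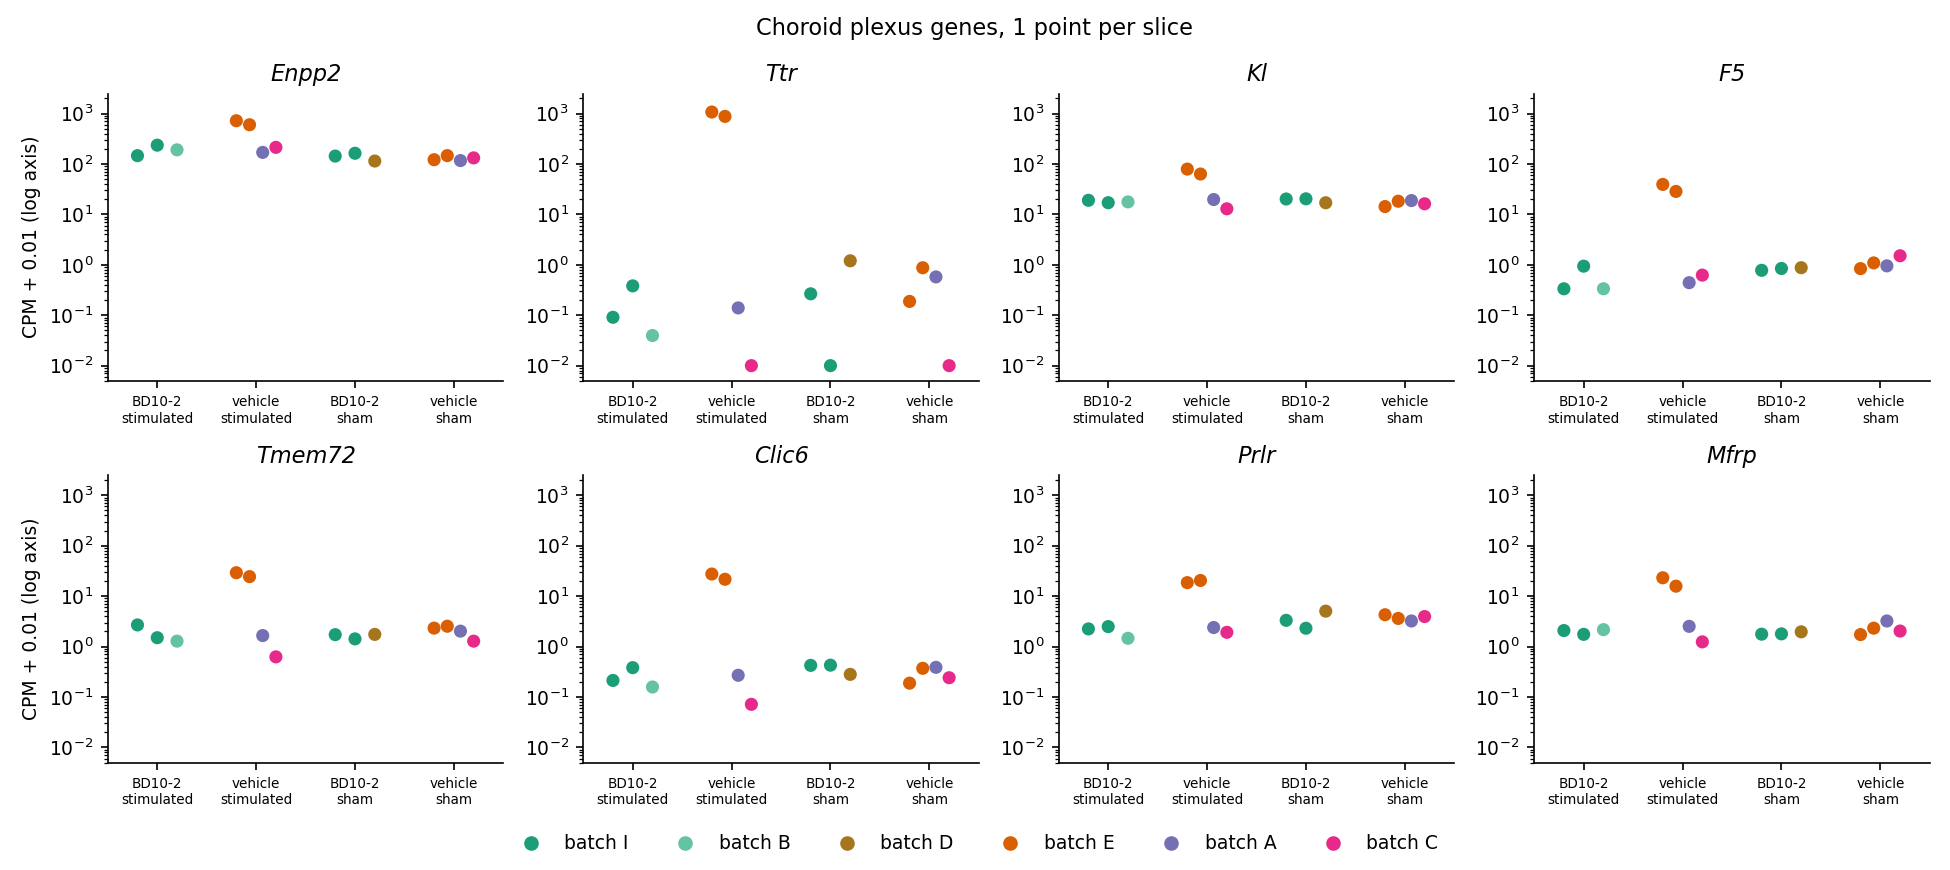
The 8 choroid plexus genes with the highest mean level, in the 14 wild-type slices. Each point is 1 slice, the y axis is CPM + 0.01 on a log scale, and colours give the batch. The 2 batch E stimulated vehicle slices stand above all other slices in every panel, while the batch E sham slices do not.

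Batch E was singled out for its high choroid plexus transcripts, so this list's values with or without batch E, or in the stimulated minus sham difference, describe that choice and test nothing. Without the 2 batch E mice, 22 of the 24 genes passed the filter on low counts. Their median log2 fold change was 0.11, none was lower and 1 (Trpv4) was higher at an unadjusted p under 0.05, where 6.16% of all genes were higher and 5.77% lower. The choroid plexus score is the mean of these same genes, so a list median near 0 is fixed by construction when the score is a covariate. With it the median was 0.01 and 1 gene (Cldn2) was lower at an unadjusted p, against 3.77% of all genes lower and 3.41% higher. With batch E as the only vehicle mice, all 24 were lower at an unadjusted p and 23 passed adjustment. In that setting 1.26% of all genes were higher and 2.34% lower, and 91 genes were called, all of them lower, 68 of them outside the choroid plexus list. In sham slices the median of the list was -0.09, and none was lower or higher at an unadjusted p under 0.05, against 0.981% and 0.94% of all genes. The difference between stimulated and sham slices in the BD10-2 effect was lower for 16 of the 24 at an unadjusted p, against 0.981% of all genes, and none was called. That fit took slices as independent. With the mouse as a block not all 24 were fitted. Ttr and Enpp2 were then under an unadjusted p of 0.05 (edgeR, 0.0133 and 0.0279), and Prlr and Tmem72 were not (0.149 and 0.136).

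Several genes outside the list moved with the same 2 slices. Ace, the angiotensin-converting enzyme, was 54.9 and 35.5 CPM in batch E, 7.78 and 7.25 CPM in the other vehicle slices and 3.41, 6.20 and 7.39 CPM with BD10-2. Its log2 fold change of -2.22 became -0.40 without batch E (unadjusted p = 0.294). Col9a3, a collagen IX chain, was 24.5 and 23.2 CPM in batch E, 8.34 and 10.3 CPM in the other vehicle slices and 6.89 to 8.01 CPM with BD10-2, and its log2 fold change went from -1.13 to -0.28 (unadjusted p = 0.126). Of the 569 genes lower at an unadjusted p, 156 had both batch E slices above the other 5 samples (5.92% of all genes). Genes lower with BD10-2 favour that pattern by construction. Among the 569, 299 were also lower at an unadjusted p without batch E, 330 with the covariate and 251 with batch E as the only vehicle mice. Only 52 were lower in both vehicle subsets, which share the 3 BD10-2 mice.

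Markers of neighbouring cells lay partly with batch E. Of 12 listed meningeal and perivascular fibroblast genes 11 had lower estimates (median -0.50), and 4 were lower at an unadjusted p, beside 2.92% of all genes: Igf2, Igfbp2, Col1a2 and Ogn. Igfbp2, an insulin-like growth factor binding protein, was 31.5 and 26.2 CPM in batch E, 11.7 and 15.9 CPM in the other vehicle slices and 8.68, 10.4 and 10.6 CPM with BD10-2. Without batch E none of the 12 was lower at an unadjusted p (median -0.21), beside 5.77% of all genes. With batch E as the only vehicle mice all 12 estimates were under 0 (median -0.97) and 2 passed adjustment, beside 91 of all 19832 genes tested. Of 11 tested ependymal genes, which serve motile cilia of the ventricle wall, 3 were lower at an unadjusted p (Tekt1, Meig1 and Cfap126; 2.92% of all genes), and the median was -0.39. Without batch E, 2 of 12 were lower (5.77% of all genes) and the median was -0.71. The ependymal median was -0.17 with batch E as the only vehicle mice (7 of 12 under 0) and -0.33 in sham slices (9 of 11 under 0). The part of these cells in the other results was not tested.

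Cholesterol synthesis genes had mostly lower estimates with BD10-2, with and without batch E, and none passed adjustment. All 20 listed genes were tested, 19 had lower estimates, and the median log2 fold change was -0.32, beside -0.01 over all genes. At an unadjusted p under 0.05, 11 were lower (2.92% of all genes were), and the number called by edgeR and by DESeq2 was 0. For 7 of them every BD10-2 slice lay below every vehicle slice: Hmgcs1, Mvk, Idi1, Sqle, Cyp51, Msmo1 and Stard4. Such separate groups were found for 3.31% of all genes in this direction and for 3.42% in the other. The mean of log2(CPM + 1) over the list was 4.65, 4.81 and 4.92 in the BD10-2 slices and 4.99, 5.02, 5.04 and 5.23 in the vehicle slices, highest in Mouse1524 and lowest in Mouse1565.

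The pathway opens with Hmgcs1 (ENSMUSG00000093930), the HMG-CoA synthase that supplies mevalonate synthesis. It measured 143, 161 and 157 CPM with BD10-2 and 188, 204, 181 and 211 CPM with vehicle. The groups were separate, and the log2 fold change was -0.35 (SE 0.11, unadjusted p = 0.00415, adjusted p = 0.691 by edgeR). Mvk, mevalonate kinase, was 6.41, 7.75 and 8.51 CPM with BD10-2 and 9.86, 8.54, 11.5 and 12.4 CPM with vehicle. Its highest BD10-2 slice and lowest vehicle slice nearly met.

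Idi1, the isomerase that makes the second isoprenoid building block, was 29.1, 31.4 and 31.1 CPM with BD10-2 and 32.3, 46.6, 38.6 and 47.3 CPM with vehicle (log2 fold change -0.43, SE 0.14). Mouse1509 was the vehicle slice closest to the BD10-2 range. Sqle, squalene epoxidase, was 38.9, 40.0 and 44.6 CPM with BD10-2 and 53.3, 48.9, 53.5 and 58.8 CPM with vehicle. Cyp51, the lanosterol demethylase, was 55.6, 60.6 and 60.5 CPM against 62.3, 67.8, 72.2 and 80.6 CPM. Msmo1, the sterol C4-methyl oxidase that acts after Cyp51, was 46.9, 54.0 and 56.1 CPM against 61.4, 63.2, 65.1 and 78.2 CPM (log2 fold change -0.36, SE 0.11, unadjusted p = 0.00228, adjusted p = 0.572 by edgeR). In Sqle, Cyp51 and Msmo1 the highest slice was that of Mouse1524. Stard4, a sterol carrier, was 8.64, 10.4 and 11.3 CPM with BD10-2 and 14.8, 14.9, 12.9 and 14.9 CPM with vehicle, and had the lowest log2 fold change of the list, -0.51.

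Lss, which makes lanosterol ahead of Cyp51, had a log2 fold change of -0.08 with overlapping groups. Nsdhl and Dhcr7, which act after Cyp51, had log2 fold changes of -0.16 and -0.07, also with overlapping groups.

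**Figure D2:**
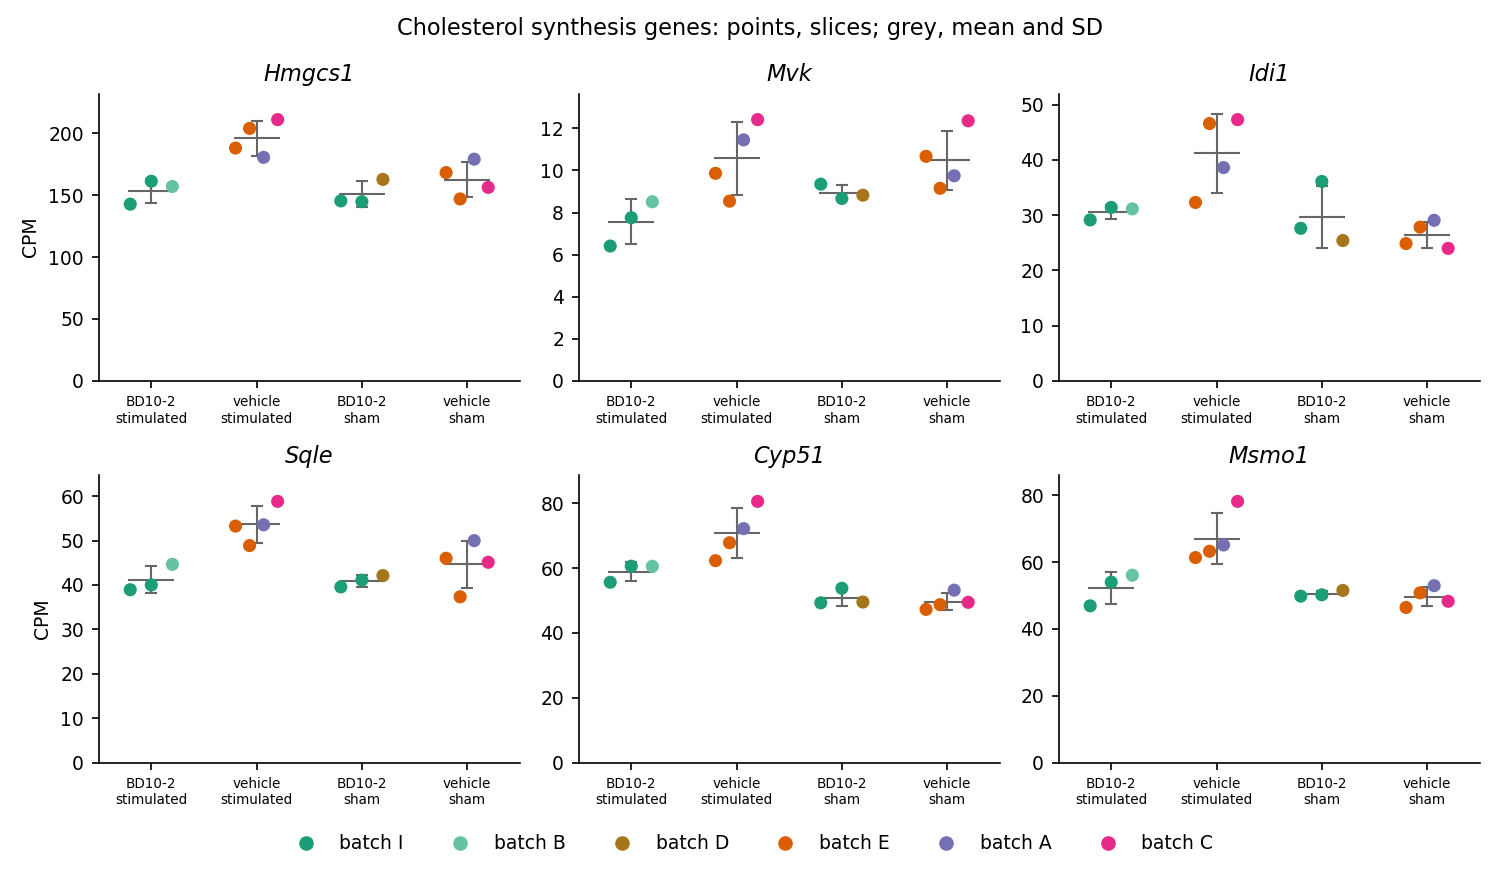
Levels of 6 cholesterol synthesis genes in the 14 wild-type slices, in CPM from 0. Points are slices coloured by batch, and grey marks give each group's mean and SD. In the stimulated slices every BD10-2 point lies below every vehicle point, and in the sham slices the groups overlap.

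Upstream sequence was read for the list, since its members are known to share promoter elements. RefSeq promoter windows (GRCm38.p6) were matched by symbol for 12 of the 20 genes, in 14 windows, and the 250 bases before each start were searched on both strands. The letters CCAAT, the core that NF-Y binds, were found in 12 of 12 genes and 12 of 14 windows, against 33.8% of 32851 windows of all genes. They were in 7 of 7 genes lower at an unadjusted p and in 5 of 5 of the others. The windows without them were further starts of Dhcr7, which had the letters in another window. The letters TCACNCCAC, a form of the sterol regulatory element, were found in Hmgcs1 alone of the 12, starting 137 bases before its start, against 1.05% of all windows. No match says only that those letters are not in the window. The windows of 3 members with separate groups are shown 5′ to 3′, all on the + strand, with CCAAT on either strand and the TCACNCCAC match in capitals: chr13:119690101-119690350 for Hmgcs1 (CCAAT 3 times), chr5:114444019-114444268 for Mvk (5 times) and chr13:8885356-8885605 for Idi1 (2 times).
Hmgcs1: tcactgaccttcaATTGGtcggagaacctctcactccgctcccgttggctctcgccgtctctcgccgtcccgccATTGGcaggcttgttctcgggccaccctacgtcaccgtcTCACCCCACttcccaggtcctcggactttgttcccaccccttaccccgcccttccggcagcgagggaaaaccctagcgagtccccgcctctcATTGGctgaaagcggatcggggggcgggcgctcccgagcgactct
Mvk: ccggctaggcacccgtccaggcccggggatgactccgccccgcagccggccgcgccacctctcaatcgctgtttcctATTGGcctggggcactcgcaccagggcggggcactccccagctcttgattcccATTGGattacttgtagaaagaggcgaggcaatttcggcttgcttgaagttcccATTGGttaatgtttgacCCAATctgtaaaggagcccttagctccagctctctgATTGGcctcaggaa
Idi1: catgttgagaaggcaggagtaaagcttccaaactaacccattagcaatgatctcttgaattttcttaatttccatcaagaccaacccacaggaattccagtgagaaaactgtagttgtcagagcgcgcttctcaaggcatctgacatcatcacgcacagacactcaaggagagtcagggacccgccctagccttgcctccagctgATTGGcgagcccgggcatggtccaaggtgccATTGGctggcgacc

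The lower levels were set against the vehicle subsets and the sham slices. Without batch E, 14 of the 20 genes were lower at an unadjusted p (median -0.40, 5.77% of all genes lower). With the choroid plexus score as a covariate, 13 were (median -0.41, 3.77% of all genes). With batch E as the only vehicle mice, 6 were (median -0.21, 2.34% of all genes). The number was 6 without Mouse1565, where the number at an unadjusted p over all genes tested also fell, from 1093 to 453. The median was -0.19 without Mouse1524, so single mice of both groups moved these values. Mouse1524, the highest slice of this list, also had the highest share of counts in the 10 most abundant genes (19.3%) and the lowest endothelial score (2.45), and the part of these in the result was not tested. In sham slices none of the 20 was lower or higher at an unadjusted p, beside 0.981% and 0.94% of all genes. Of the 20 sham estimates 15 were under 0, and the median was -0.12.

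The BD10-2 effect itself differed between stimulated and sham slices at an unadjusted p under 0.05 for 3 of the 20 members, each lower (0.981% of all genes were): Idi1, Msmo1 and Sc5d, the lathosterol desaturase. The log2 differences of the effect were -0.60 for Idi1, -0.38 for Msmo1 and -0.32 for Sc5d, beside a median of -0.01 over all genes. In sham slices Msmo1 was 49.8, 50.2 and 51.5 CPM with BD10-2 and 46.4, 50.8, 52.9 and 48.3 CPM with vehicle. The sham groups overlapped. None of the 3 passed adjustment over all genes in that test (edgeR), which took slices as independent. With the mouse as a block, since 6 mice gave both slices, the log2 differences were -0.69 for Idi1, -0.43 for Msmo1 and -0.34 for Sc5d. Further members, among them Sqle, Cyp51 and Hsd17b7, were then also lower at an unadjusted p under 0.05 (edgeR). Lss and Dhcr7 had estimates above 0, and none of the list passed adjustment.

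**Figure D3:**
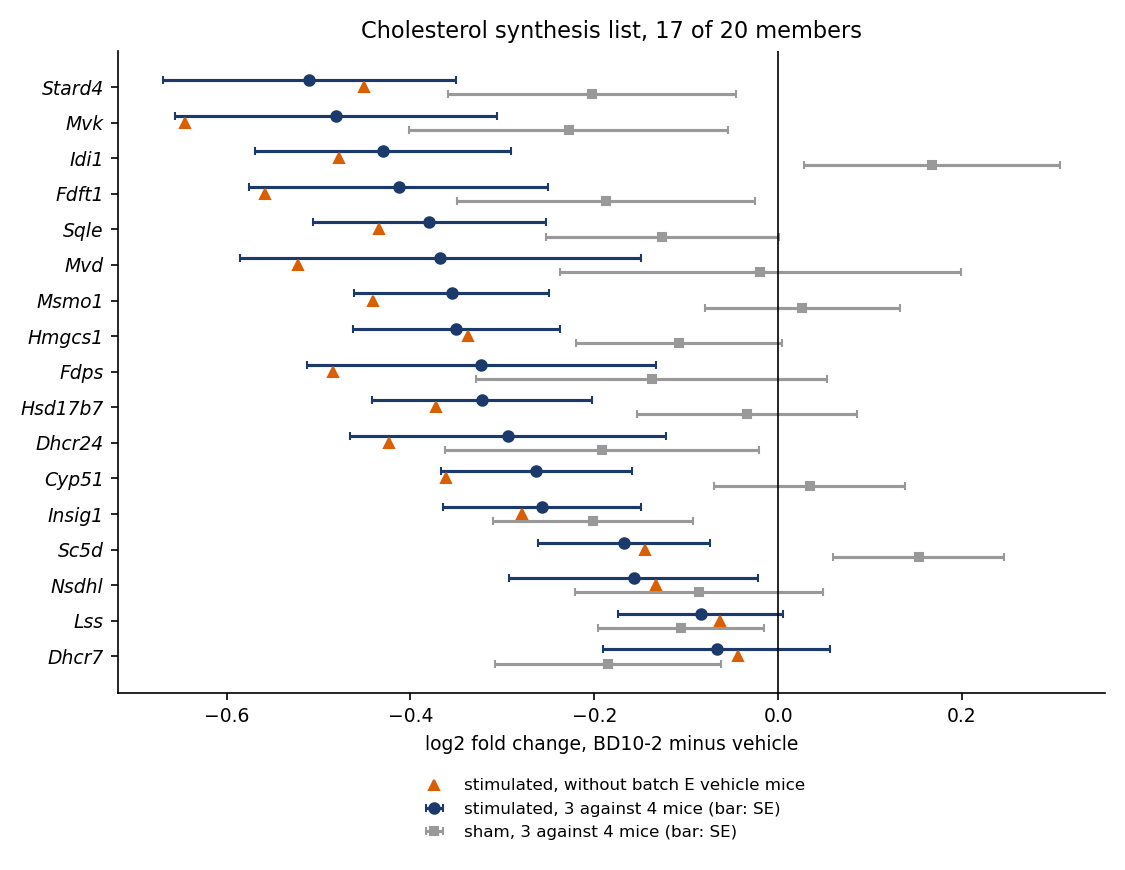
Log2 fold changes (BD10-2 minus vehicle) of 17 of the 20 cholesterol synthesis genes. Circles are stimulated slices, triangles are stimulated slices without the batch E mice, and squares are sham slices, and bars are SE. The other 3 members are not reported by name and not drawn; 19 of all 20 estimates in stimulated slices, and the 17 drawn, lie left of 0.

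The target receptors of BD10-2 had overlapping levels in both groups. Ntrk2 (ENSMUSG00000055254), which encodes TrkB, was 571, 632 and 601 CPM with BD10-2 and 575, 561, 653 and 659 CPM with vehicle. Ntrk3 (ENSMUSG00000059146), which encodes TrkC, was 443, 356 and 328 CPM with BD10-2 and 350, 380, 356 and 228 CPM with vehicle. The groups overlapped for both receptors, and edgeR put the log2 fold change of Ntrk2 at -0.02 (SE 0.09, adjusted p = 0.976) and that of Ntrk3 at 0.19 (SE 0.15, adjusted p = 0.910). The lowest Ntrk3 value was that of Mouse1524. The shared receptor Ngfr, which encodes p75, was 0.770 to 2.81 CPM with BD10-2 and 1.54 to 3.20 CPM with vehicle.

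Among the ligands, Bdnf was 54.2, 37.8 and 35.1 CPM with BD10-2 and 32, 37.3, 35.0 and 37.2 CPM with vehicle. The groups overlapped, with Mouse1565 the highest slice (log2 fold change 0.26, SE 0.16), and without it the estimate was 0.04. Ntf3, which encodes neurotrophin-3, was 2.10 to 3.20 CPM and 1.48 to 3.33 CPM. Of 14 listed neurotrophin genes 12 were tested, and 1 was higher at an unadjusted p, beside 2.69% of all genes, with a median of 0.00. It was Sorcs3, a sorting receptor of the Vps10 family, at 84.2, 69.3 and 65.9 CPM against 66.3, 62, 67.4 and 46.3 CPM.

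Downstream of the receptors, 2 of 34 adaptors and kinases were lower at an unadjusted p and none was higher (median -0.05), beside 2.92% and 2.69% of all genes. They were Gsk3b, a kinase held in check by Akt, at 218, 210 and 224 CPM against 231, 242, 229 and 248 CPM, and Map2k1, the MAP kinase kinase MEK1, at 145, 120 and 152 CPM against 146, 146, 168 and 192 CPM. Gsk3b had separate groups and Map2k1 did not. None of 14 ERK feedback genes, which are read as a record of MAP kinase activity, was lower or higher at an unadjusted p (median 0.00). Their median was -0.10 without batch E (1 lower, beside 5.77% of all genes) and 0.13 with batch E as the only vehicle mice (2 higher, beside 1.26%). Of 18 activity-regulated genes, Egr3, an early-response transcription factor, was higher (177, 128 and 134 CPM against 123, 123, 117 and 128 CPM, unadjusted p = 0.0401), and the median was -0.01. That median also turned with the vehicle mice, to -0.19 without batch E (15 of 18 estimates under 0) and 0.18 with batch E alone (2 of 18 under 0). Of 18 secreted and synaptic effectors, Nptx2, a pentraxin that clusters AMPA receptors, was higher (61.1, 42.6 and 36.5 CPM against 36.9, 31.5, 31.5 and 34.5 CPM, unadjusted p = 0.0337). These were the only members of their lists higher at an unadjusted p, beside 2.69% of all genes, and Mouse1565 was the highest slice for both.

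**Figure D4:**
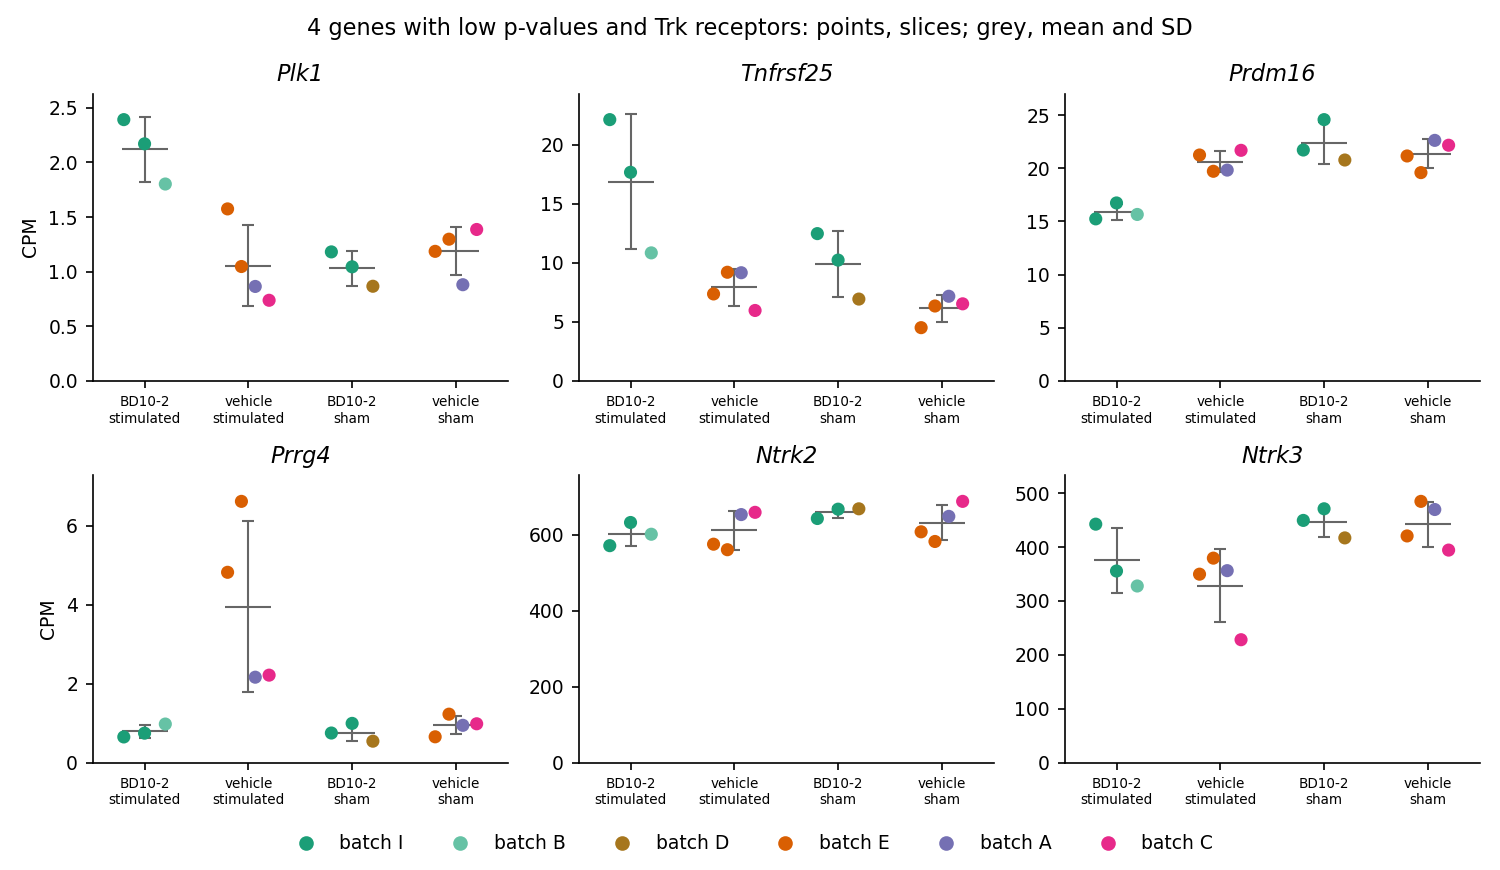
Levels of Plk1, Tnfrsf25, Prdm16, Prrg4, Ntrk2 and Ntrk3 in the 14 wild-type slices, in CPM from 0. Points are slices coloured by batch, and grey marks give each group's mean and SD. The first 4 genes separate the stimulated groups, and the Trk receptors do not.

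Synaptic vesicle genes had mostly lower estimates. Of 27 listed, 22 had estimates under 0 (median -0.26) and 1 was lower at an unadjusted p, beside 2.92% of all genes: Snap25, a SNARE protein of vesicle fusion, at 659, 599 and 816 CPM with BD10-2 and 868, 836, 869 and 964 CPM with vehicle. Its groups were separate, and its log2 fold change was -0.35 (SE 0.16, adjusted p = 0.881 by edgeR). The list's score was 7.42, 7.48 and 7.78 with BD10-2 and 7.68, 7.56, 7.82 and 7.98 with vehicle. The count depended on the vehicle mice: 8 were lower without batch E (median -0.38, 5.77% of all genes), 11 with the covariate (3.77%) and none with batch E alone (median -0.07, 2.34%). Of 30 glutamate receptor and postsynaptic density genes, 1 was higher at an unadjusted p, beside 2.69% of all genes, and the median was 0.07.

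Dentate gyrus granule cell markers had the highest median of the lists, 0.44, with 9 of 10 estimates above 0. At an unadjusted p under 0.05, 3 were higher (Lct, Dock10 and Trpc6), against 2.69% of all genes. The number was 1 without batch E (6.16% of all genes), 2 with the covariate (3.41%) and 0 with batch E as the only vehicle mice (1.26%), with medians of 0.48, 0.48 and 0.39. The groups were separate for 4 of the 10, Prox1, Dsp, Lct and Dock10, beside 3.42% of all genes in this direction. Dock10, an exchange factor for small GTPases enriched in granule cells, was 246, 195 and 161 CPM with BD10-2 and 151, 158, 156 and 124 CPM with vehicle (log2 fold change 0.45, SE 0.19). Prox1 was 186, 129 and 128 CPM against 102, 120, 114 and 112 CPM. Mouse1565 was the highest slice for both, and the list's score was 5.94 there against 5.41 and 5.30 in the other BD10-2 slices and 5.06 to 5.27 with vehicle. In sham slices the median was 0.09 and the groups overlapped, with scores of 4.67 to 5.63 and 4.93 to 5.82. The share of the dentate gyrus in each slice was not given by the labels, and its part in other results was not tested.

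The 9 CA1 markers had a median of -0.01, and 1, the matricellular protein Ccn3, was lower at an unadjusted p (2.92% of all genes). CA3 and CA2 markers had a median of -0.09 and none at an unadjusted p. All 12 interneuron markers had estimates under 0 (median -0.18), none at an unadjusted p. With batch E as the only vehicle mice, 5 of the 12 were under 0 and the median was 0.03.

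Glial and vascular lists had medians between -0.06 and 0.16, and most changed sign with the vehicle subset. Myelin genes had a median of 0.10, astrocyte genes -0.06, homeostatic microglia genes 0.00 and plaque-associated microglia genes -0.04, with none lower or higher at an unadjusted p in any of the 4 lists. Without batch E the astrocyte median was -0.23 (11 of 12 estimates under 0), the homeostatic microglia median -0.10 (2 of 10 lower at an unadjusted p, beside 5.77% of all genes) and the plaque-associated median -0.16. With batch E as the only vehicle mice they were 0.09, 0.19 and 0.04, while the myelin median kept its sign (0.09 and 0.16). Endothelial and pericyte genes had a median of 0.16 and none at an unadjusted p. Their score was 2.45 in Mouse1524 and 3.45 to 4.05 in the other 6 stimulated slices. Without batch E, which leaves Mouse1524 as 1 of 2 vehicle mice, the median was 0.64 and 6 of 14 were higher (6.16% of all genes), and with batch E as the only vehicle mice the median was -0.30 and 2 were lower (2.34%).

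The groups overlapped for all 21 cytokine and chemokine genes tested. Their score was 4.32, 4.89 and 4.65 with BD10-2 and 4.69, 4.43, 4.09 and 4.55 with vehicle, while the 7 sham slices ran from 1.28 to 1.66. None of 21 cytokine genes, 19 NF-kappaB feedback genes or 24 interferon-stimulated genes was lower or higher at an unadjusted p, with medians of 0.11, 0.05 and -0.20. The groups were separate for 1 NF-kappaB gene, which was higher (3.42% of all genes), and for 1 interferon-stimulated gene, which was lower (3.31%). Lif, a cytokine of the interleukin-6 family, measured 49.3, 72.9 and 51.3 CPM with BD10-2 and 56.1, 50.7, 29.2 and 21.5 CPM with vehicle. Its estimate of 0.55 (unadjusted p = 0.132) was 1.20 without batch E and 0.10 with batch E as the only vehicle mice.

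Of 20 hypoxia and glycolysis genes, 4 were lower at an unadjusted p (Pgk1, Eno1, Bnip3 and Car9), beside 2.92% of all genes, with a median of -0.10. Eno1, the glycolytic enolase, was 304, 312 and 389 CPM with BD10-2 and 364, 346, 423 and 526 CPM with vehicle. The groups overlapped, and Mouse1524 was the highest slice. Without batch E, 7 of the 20 were lower (5.77% of all genes), and none was with batch E as the only vehicle mice (2.34%). The 20 heat shock genes had a median of -0.05, and 1, the endoplasmic reticulum chaperone Hsp90b1, was higher at an unadjusted p (2.69% of all genes). Mitochondrially encoded genes had a median of 0.09 and none at an unadjusted p, and the median was 0.47 without batch E and -0.22 with batch E as the only vehicle mice. Thalamus and habenula markers, which would mark tissue from beyond the hippocampus, had a median of -0.01 and none at an unadjusted p.

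**Figure D5:**
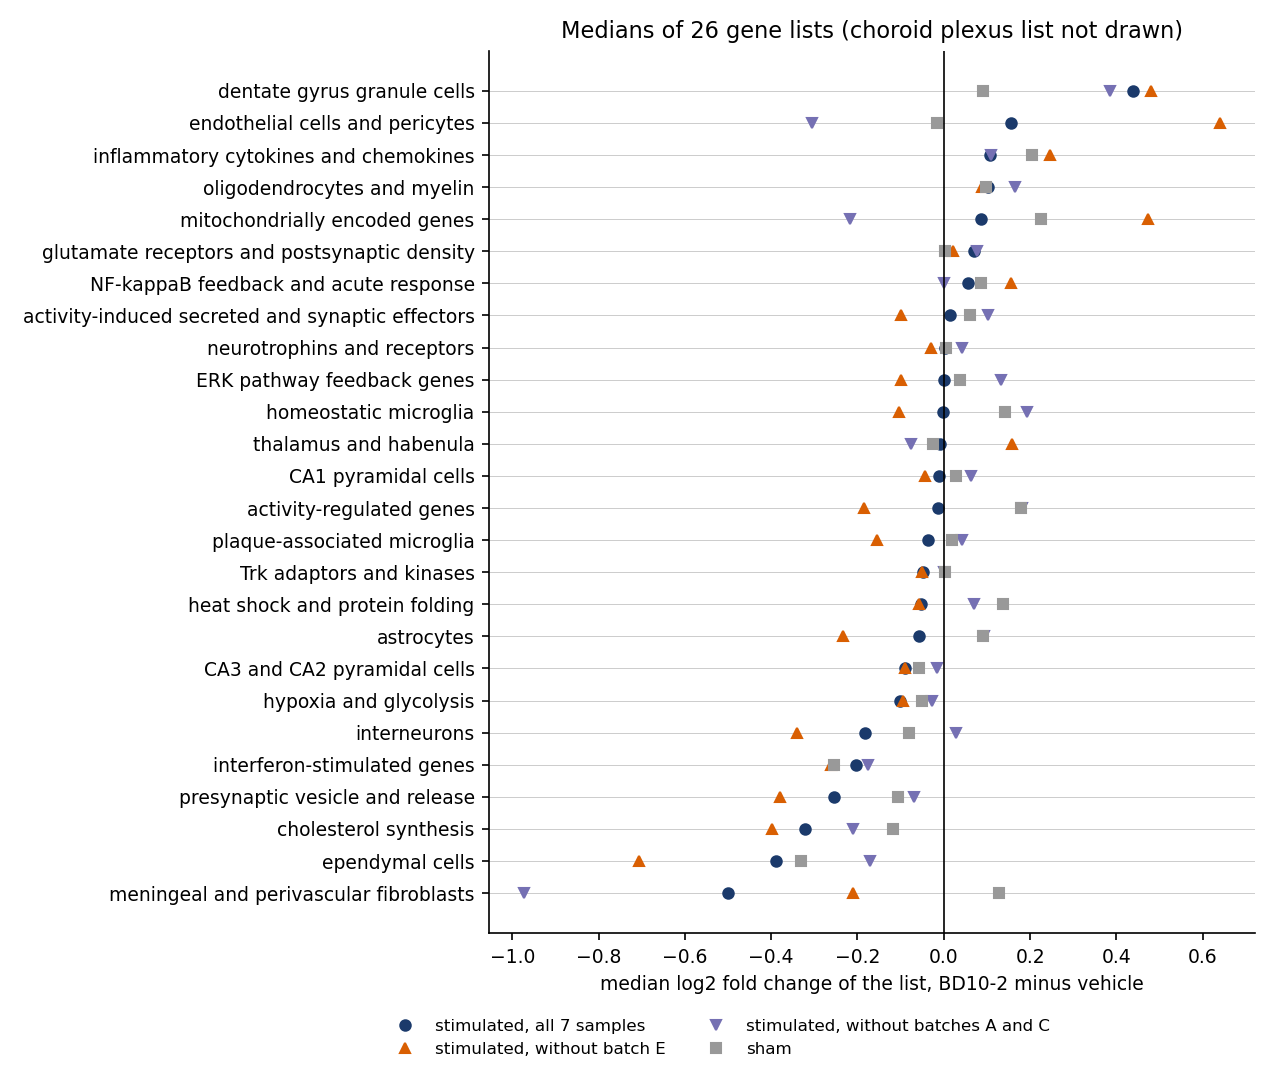
Median log2 fold change (BD10-2 minus vehicle) of 26 gene lists, 1 row per list. Circles use all 7 stimulated samples, upward triangles leave out batch E, downward triangles leave out batches A and C, and squares are the sham slices. In all 3 stimulated settings 11 of the 26 medians keep their sign, among them those of the dentate gyrus and cholesterol synthesis lists, and 15 do not.

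Genes with the smallest p-values outside the choroid plexus, ependymal and fibroblast lists are given next. Prrg4 (ENSMUSG00000027171), a vitamin K-dependent transmembrane protein, was 0.649, 0.744 and 0.975 CPM with BD10-2 and 4.82, 6.61, 2.16 and 2.21 CPM with vehicle. All vehicle slices lay above all BD10-2 slices, and the batch E slices were the highest. The log2 fold change was -2.30 (SE 0.45, adjusted p = 0.161 by edgeR) and -1.44 without batch E. Cab39l, a scaffold of the LKB1 kinase, was 12.8, 12.1 and 13.3 CPM against 29.3, 28.4, 15.2 and 17 CPM. Sntb1, a syntrophin, was 2.35, 1.55 and 3.60 CPM against 11.1, 8.21, 4.36 and 4.30 CPM. In Cab39l and Sntb1 the groups were separate and batch E was again highest.

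Prdm16, a zinc finger transcription factor of neural stem cells and astrocytes, did not follow batch E. It measured 15.2, 16.7 and 15.7 CPM with BD10-2 and 21.3, 19.7, 19.8 and 21.7 CPM with vehicle (log2 fold change -0.38, SE 0.09, adjusted p = 0.289 by edgeR). Its estimate was -0.37 without batch E and -0.38 with batch E as the only vehicle mice. Arl6, a small GTPase of ciliary traffic, was 6.49, 4.71 and 6.47 CPM against 7.55, 8.70, 8.04 and 9.47 CPM (log2 fold change -0.51). Spint2, a serine protease inhibitor, and Drc7, a part of the ciliary dynein regulatory complex, had log2 fold changes of -1.03 and -1.94, which were -0.54 and -1.08 without batch E.

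On the higher side, Tnfrsf25 (ENSMUSG00000024793), the death receptor DR3, was 22.1, 17.7 and 10.8 CPM with BD10-2 and 7.36, 9.20, 9.16 and 5.96 CPM with vehicle. The groups were separate, with the batch I slices highest, and the log2 fold change was 1.08 (SE 0.25, adjusted p = 0.260 by edgeR; DESeq2 adjusted p = 0.0324). In sham slices it was 12.5, 10.2 and 6.93 CPM with BD10-2 and 4.51, 6.34, 7.17 and 6.53 CPM with vehicle, a log2 fold change of 0.70 (unadjusted p = 0.0120). The batch I mice were the highest there too. Plk1 (ENSMUSG00000030867), a mitotic kinase, was 2.39, 2.17 and 1.8 CPM with BD10-2 and 1.57, 1.05, 0.864 and 0.738 CPM with vehicle (log2 fold change 0.99, SE 0.23, adjusted p = 0.260 by edgeR), and its sham groups overlapped (log2 fold change -0.18).

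The other 8 higher genes were AC132307.1, Sap25, Prpf3, Srbd1, Rmnd1, Prss53, E4f1 and Adamts17, with log2 fold changes from 0.32 to 1.32. Prpf3, a splicing factor, had overlapping groups, and the other 7 did not overlap. Adamts17, a secreted metalloprotease, was 30.2, 24.7 and 22 CPM with BD10-2 and 15.9, 18.4, 16.8 and 15.2 CPM with vehicle. Of the 524 genes higher at an unadjusted p, 344 were also higher without batch E, 322 with the covariate, 124 with batch E as the only vehicle mice and 52 in both vehicle subsets.

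The sham comparison and the test of the difference had no called gene with edgeR or DESeq2. In sham slices 374 genes had an unadjusted p under 0.05 with edgeR and 362 with DESeq2. For the stimulated minus sham difference of the BD10-2 effect the numbers were 337 and 348. With the mouse as a block, since 6 mice gave a slice to each condition, edgeR called 4 genes for that difference: Gm24950, Gm23849 and Rnu2-10, which share identical values, and Gm6565. Of the 569 genes lower at an unadjusted p in stimulated slices 12 were lower in sham slices (0.981% of all genes), and of the 524 higher genes 22 were higher (0.94%). The 2 comparisons share 2 BD10-2 mice and all 4 vehicle mice.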

How the data were processed

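Per the labels' protocols, 200 ng of total RNA of each sample went into a stranded library after ribosomal depletion. The deposited values are expected counts per gene from the authors' RSEM run, not normalized, and 5.69% of them hold decimals. The submitters' processing notes name cutadapt 1.8.1, STAR 2.7.6a, RSEM 1.3.1, featureCounts 1.6, SAMtools 1.11 and the builds GRCm38.p6 and mm10. The annotation release and the strand setting are not given in the sources used here, so overlapping and antisense genes are uncertain. Of 55421 gene IDs, 55154 matched a symbol.

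Libraries of the same mouse and stimulation were added, which turned 36 libraries into 32 samples of 18 mice, and sums were rounded. Genes were kept with filterByExpr (minimum count 10). Quasi-likelihood tests were fitted with edgeR 4.0.16 in R 4.3.3 over all 8 groups, with TMM factors of 0.91 to 1.06 and Benjamini-Hochberg adjustment over 19478 genes (threshold 0.05). CPM were computed on TMM-adjusted library sizes, and a list's score is its mean of log2(CPM + 1). DESeq2 1.42.0 was the other tool. No batch term could be fitted, since every batch holds 1 treatment. The 27 lists, the members and the naming rule were chosen with earlier results of these data known. Named genes were the 10 higher and 10 lower with the smallest p at a mean of at least 1 CPM (predicted genes and the choroid plexus, ependymal and fibroblast lists left out), the Trk receptors and ligands, the 8 most abundant choroid plexus genes, up to 4 genes of each other list, and calls by other settings. Other genes were named for their role or where a count was small, after their values were seen. A few genes of these lists are counted but not reported here by name.

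The script was tested on simulated data for the stimulated comparison over 19478 genes: of 200 genes changed by a log2 fold of 1, 75% were recovered, with 156 calls of which 6 were unchanged genes. The simulated counts held no batch or mouse structure, and the changed genes averaged at least 1 CPM. Detection within the batches of the real data was therefore not measured. Stimulated and sham slices of the same animal pair by mouse label. Their deviations from the group means correlated with r of 0.0532 to 0.539 over 6 mice. The 2 libraries of Mouse1586 differed less (chi-square per degree of freedom 7.44) than libraries of different mice (11.6 to 20.5), and were counted as 1 sample.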

Additional observations from a re-analysis of the deposited data

Results flagged for a closer look

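In 8 of 162 groups of 4 samples tested, 1 vehicle stimulated slice lay far from the other 3, by its gap to the nearest slice as a share of the group's range on the log2(CPM + 1) scale (above Dixon's 95% critical value). Chance flags about 1 in 20 such groups. Mouse1524 was the outlying slice for Ntrk3 (share 0.839, 228 CPM against 350 to 380 CPM), for Grin2a, an NMDA receptor subunit (0.835, 581 CPM against 893 to 971 CPM), and for the heat shock score (0.912, the highest slice). Mouse1522 was the outlying slice for Stard4 (0.945, 12.9 CPM against 14.8 to 14.9 CPM), for Car9, a carbonic anhydrase (0.886, 0.821 CPM against 0.0551 to 0.123 CPM), and for the glutamate receptor score (0.944, the highest slice). Mouse1513 was the outlying slice for Sap25 (0.855, 1.16 CPM against 1.82 to 1.94 CPM) and for Cd68, a lysosomal protein of microglia (0.954, 8.26 CPM against 11.5 to 11.7 CPM).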

How the results depend on the processing

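Genes called in the stimulated comparison numbered 25 with DESeq2, 0 to 26 with 1 mouse left out and 91 without batches A and C, an alternative chosen after seeing the data. Genes at an unadjusted p numbered 453 to 1848 with 1 mouse left out, 2358 without batch E and 715 without batches A and C. Sham calls ran from 0 to 1 with 1 mouse left out (Ppp1r3c, without Mouse1524). For the stimulated minus sham difference, 7 genes were called without batches A and C, all lower, and 4 with the replicate block by mouse. Choroid plexus members lower at an unadjusted p numbered 14 with only the 2 groups in the fit and 15 with the 4 wild-type groups, where 16 of the 24 genes passed the filter and all 16 had estimates under 0. The number was 0 without batch E and 1 with the choroid plexus covariate, and the list's median was 0.11 and 0.014 in the last 2 of these. Cholesterol synthesis members lower at an unadjusted p numbered 6 to 12 with 1 mouse left out and 6 without batches A and C, and the median ran from -0.39 to -0.19 with 1 mouse left out. The causes were not tested.

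Of 2290 recomputed log2 fold changes of 135 named genes, 48 changed sign, 64 newly passed the adjusted threshold and 2178 did neither. Without batch E the changed signs were Tmem72 0.65, Mfrp 0.084, Clic6 0.36, Ttr 0.66, Enpp2 0.0057, Kl 0.14, Man1a 0.0081, Arc -0.0031, Csf1r -0.067, mt-Atp8 0.47 and Pcp4 -0.029. With the covariate they were Tmem72 0.26, Clic6 1.32, Ttr 3.03, Enpp2 0.0013, Kl 0.093, mt-Atp8 0.27 and Pcp4 -0.0033. Without batches A and C they were Ntf3 -0.13, Ntrk2 0.077, Car9 0.12, Tmem119 0.16, Bag3 0.079, Sst 0.054, Klf4 0.077, Cldn5 -0.056, Pdgfrb -0.12, Bok 0.15, mt-Atp6 0.025, mt-Nd4l -0.087, Gfap 0.042 and Vim 0.20. With the first library of Mouse1586 alone, mt-Co2 was -0.013. With 1 mouse left out the ranges that crossed 0 were Ngfr -0.70 to 0.10, Ntf3 -0.030 to 0.33, Ntrk2 -0.065 to 0.016, Selp -0.051 to 1.53, Il12b -0.28 to 0.98, Clec7a -0.073 to 1.02, Bok -0.30 to 0.048, mt-Atp6 -0.44 to 0.17, mt-Atp8 -1.07 to 0.36, mt-Co2 -0.30 to 0.58, Pcp4 -0.015 to 0.26 and Vim -0.24 to 0.054.

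The comparison rests on 3 and 4 mice, nested in batches, and detection was simulated for a log2 fold of 1 alone. Genes under about 1 CPM rest on few counts.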
